A study of Mus musculus with 6 samples.

Results

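The genes described are 8 cyclin genes together with Cdk1, the kinase that cyclins A and B activate, and Cdc20, which directs the destruction of mitotic cyclins. They were taken by symbol from a deposited table of 34745 genes, and all 10 were found and passed the filter on low counts. RNA was sequenced from RAW 264.7 cells, an established mouse macrophage line derived from a tumour induced by the Abelson leukaemia virus. The groups were cells treated with BPAP (bisphenol AP), a relative of bisphenol A, and cells treated with the solvent DMSO, with 3 libraries each. The sources used here give no dose or exposure time, no genotype or stimulus is labelled in either group, and nothing says that replicates were separate cultures, so the p-values speak of the spread among the sequenced samples, part of which may be technical.

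Cyclins are the regulatory subunits of cyclin-dependent kinases (CDKs), and each is made and destroyed at its own point of the cell cycle. D-type cyclins link growth signals to CDK4 and CDK6 in G1, E-type cyclins activate CDK2 at entry into S phase, cyclin A2 acts in S phase and G2, and cyclins B1 and B2 with CDK1 drive mitosis until CDC20 and the anaphase-promoting complex (APC/C) mark them for destruction. Much of this control acts on protein stability and phosphorylation, which RNA counts do not measure. Transcription adds a further layer: E2F factors act on genes of the G1 to S transition, and the MuvB complex with B-MYB, FOXM1 and NF-Y acts on mitotic genes.

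The promoters of the 4 mitotic genes are shown because they share known regulators whose binding letters can be read in them. Sequences are from RefSeq on GRCm38.p6, which had an entry for 6 of the 10 genes, and each runs from 250 bases before to 10 bases after the transcription start. Capitals mark CCAAT, the letters bound by NF-Y (ATTGG on the other strand), TTTGAA, the cell cycle genes homology region bound by MuvB, and the E2F words TTTCCCGC, TTTGGCGC, TTTCGCGC and TTTGCCGC.
Ccnb1 promoter, chr13:100786477-100786736, minus strand: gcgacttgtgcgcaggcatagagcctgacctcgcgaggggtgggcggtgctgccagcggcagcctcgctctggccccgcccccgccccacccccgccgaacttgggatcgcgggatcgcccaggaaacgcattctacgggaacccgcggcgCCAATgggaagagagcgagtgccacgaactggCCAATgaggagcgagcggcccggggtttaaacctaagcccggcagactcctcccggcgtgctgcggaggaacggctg
Ccnb2 promoter, chr9:70421545-70421804, minus strand: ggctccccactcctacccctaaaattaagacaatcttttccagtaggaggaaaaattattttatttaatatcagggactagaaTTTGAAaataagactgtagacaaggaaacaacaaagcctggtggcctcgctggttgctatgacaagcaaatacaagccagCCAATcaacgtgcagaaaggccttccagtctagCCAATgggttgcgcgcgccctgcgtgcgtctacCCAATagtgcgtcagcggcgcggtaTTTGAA
Cdk1 promoter, chr10:69352903-69353162, minus strand: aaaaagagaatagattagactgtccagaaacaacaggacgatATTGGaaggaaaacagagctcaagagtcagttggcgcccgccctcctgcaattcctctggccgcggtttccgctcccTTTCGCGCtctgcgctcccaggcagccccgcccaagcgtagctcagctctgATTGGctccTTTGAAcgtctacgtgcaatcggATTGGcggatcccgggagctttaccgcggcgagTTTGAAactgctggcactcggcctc
Cdc20 promoter, chr4:118437334-118437593, minus strand: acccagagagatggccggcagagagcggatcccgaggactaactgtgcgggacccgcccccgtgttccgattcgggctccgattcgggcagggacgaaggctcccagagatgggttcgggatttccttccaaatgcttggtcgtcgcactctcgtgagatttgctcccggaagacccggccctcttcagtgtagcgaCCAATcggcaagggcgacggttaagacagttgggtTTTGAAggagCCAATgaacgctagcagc

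Both strands were searched in windows of 300 bases, 250 before and 50 after each start, and no marked motif overlapped another. CCAAT occurred in all 4 promoters, 3 times in Ccnb2 and in Cdk1, and in 37.4% of all 32851 promoters of the table. TTTGAA occurred in Ccnb2, Cdk1 and Cdc20 and in 17.9% of all promoters. It lay 71 and 15 bases before the start in Cdk1 and 18 bases before it in Cdc20. In Ccnb2 it lay 167 bases before the start and at base 5 after it. An E2F word occurred in Cdk1, 131 bases before the start, and in 2.26% of all promoters. The Ccne1 window and the upstream Ccnd3 window held none of these words, and the other Ccnd3 window held 1 CCAAT. The bases after the start used for Ccne1 were not found in a GENCODE M21 transcript of that gene, so its start is uncertain. A match is a description of the letters and does not show that a factor bound there.

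Total counts were 12427563, 12056332 and 12425350 in the BPAP libraries and 11084705, 12550065 and 13806559 in the DMSO libraries. Levels are CPM, counts scaled to library size with TMM factors, which correct for library composition. All 8 macrophage markers examined were present, with a summed level of 5113 to 5472 CPM in BPAP libraries and 4565 to 5149 CPM in DMSO libraries. At the adjusted p of 0.05 used throughout, 4 of the 8 were higher in BPAP, where 16.2% of all genes tested were, and 2 were lower, where 15.5% were. Summed levels of 4 markers each of fibroblasts, epithelium, T cells and neutrophils stayed at or below 0.915 CPM in every library, and Dcn, Epcam, Cd3e and Ly6g had 0 counts. Among the BPAP libraries, BPAP 2 had the lowest level for 4734 of the 11711 genes tested (40.4%), BPAP 1 for 31.6% and BPAP 3 for 28.0%. Mitochondrial genes took 6.53% to 7.55% of the counts in BPAP libraries, against 10.8% in DMSO 1 and 7.02% and 7.36% in the other DMSO libraries. In bulk RNA, fewer cells in a phase of the cycle and less RNA per cell in that phase cannot be told apart.

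The comparison asks which genes of the cycle engine differ in macrophages exposed to BPAP. After TMM scaling alone, Ccne1, Ccne2 and Ccna2, the cyclin genes of S phase entry, S phase and G2, were lower in BPAP. Neither the D-type cyclin genes nor the mitotic genes passed the test in that fit. Passing means an adjusted p under 0.05 by edgeR's quasi-likelihood test, Benjamini-Hochberg adjusted over all genes tested. By this rule 3 of the 10 genes were lower, where 15.5% of all genes tested were lower, and 0 of 10 were higher, where 16.2% of all genes were (31.7% in either direction). At an unadjusted p of 0.05 the calls were the same 3 genes. DESeq2 called 2 of the 10 lower, with 16.0% of all genes lower, and 0 higher, with 15.4% higher. With the exon length and GC trend of each library removed, 5 of the 10 were lower, with 11.2% of all genes lower. Ccnb2 and Cdc20 were among them. Ccnd2 alone was higher in that fit, with 11.8% of all genes higher. The calls of Ccne1 and Ccna2 were each lost in several of the alternatives given below. The median log2 fold change of the 10 genes, BPAP minus DMSO, was -0.14, against 0.02 for all genes tested. BPAP and DMSO values did not overlap for 5 of the 10 genes, 2 higher and 3 lower, where 49.0% of all genes tested did not overlap, 25.2% higher and 23.8% lower.

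**Figure D1:**
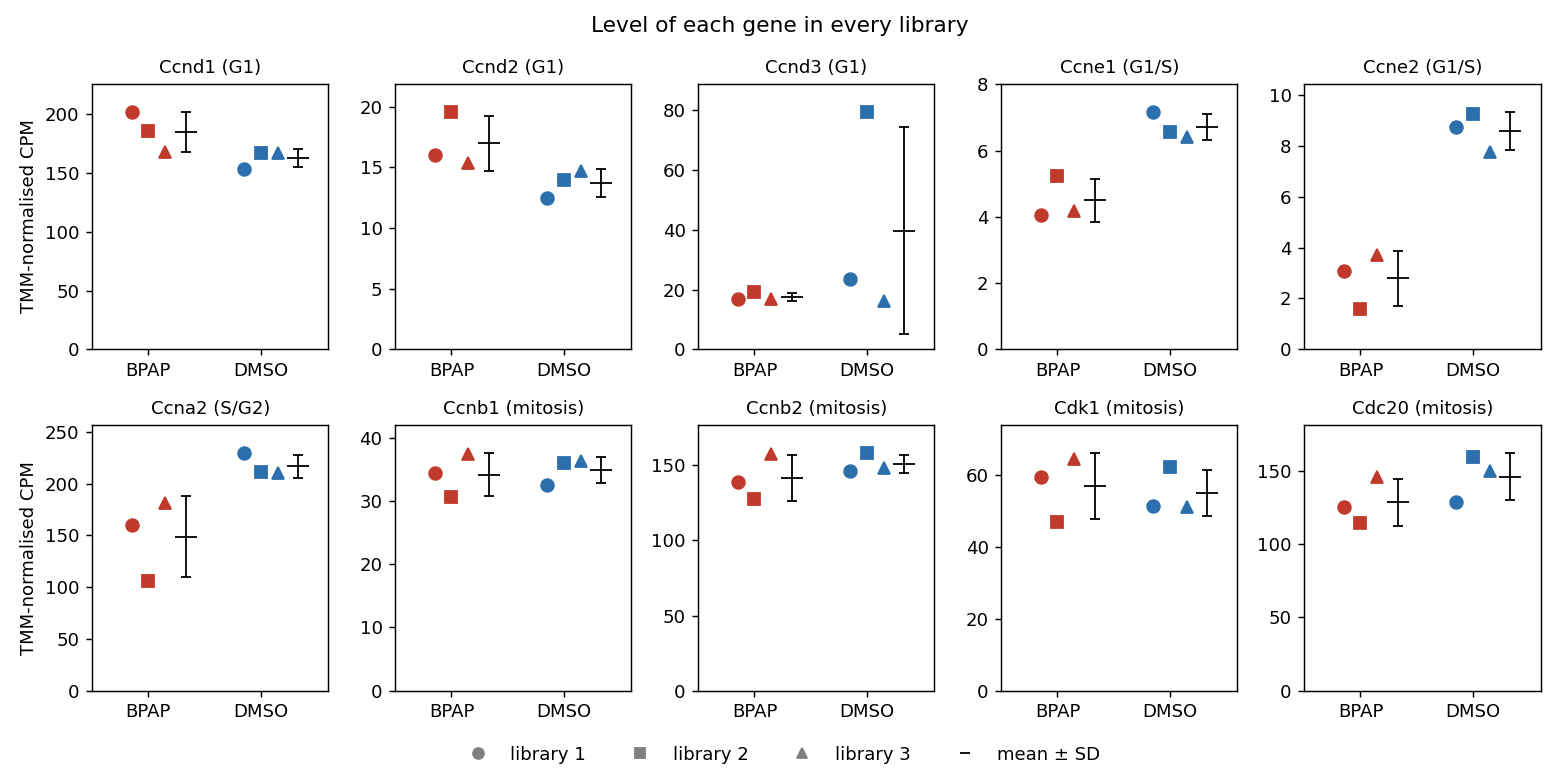
Level of the 10 genes in TMM-normalised CPM on linear axes from 0, with BPAP libraries left in red and DMSO libraries right in blue, 1 marker shape per library number, and the mean ± SD in black. Ccne1, Ccne2 and Ccna2 lie lower in all 3 BPAP libraries, the 4 mitotic genes overlap between groups, and Ccnd3 is far higher in DMSO 2 than in any other library.

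Ccnd1, the D-type cyclin gene with the highest level here (chromosome 7, 144929931 to 144939869, GRCm38, minus strand), had 201, 185 and 168 CPM in BPAP 1 to 3, against 153, 167.0 and 166.9 CPM in DMSO 1 to 3. Every BPAP library was above every DMSO library, BPAP 3 by less than 1 CPM. The log2 fold change was 0.19 (95% interval -0.02 to 0.39, adjusted p = 0.151). A stretch of 1100 of its 4709 exon bases also belongs to Oraov1 on the opposite strand, and Oraov1 had 850 counts over all libraries against 12917 for Ccnd1.

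Ccnd2 (chromosome 6, 127125162 to 127152193, minus strand), which encodes cyclin D2, had 16.0, 19.6 and 15.3 CPM in BPAP 1 to 3, against 12.5, 13.9 and 14.7 CPM in DMSO 1 to 3. The groups did not overlap, with BPAP 2 highest. Its log2 fold change was 0.31 (95% interval -0.0031 to 0.61, adjusted p = 0.118 in edgeR's test). In a fit without the trend of exon length and GC content in each library, described with the mitotic genes, Ccnd2 passed at 0.42 (SE 0.13, adjusted p = 0.0470), and it passed at 0.48 (adjusted p = 0.0363) with the trend of the length behind the deposited FPKM removed.

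Ccnd3 (chromosome 17, 47505051 to 47599691, plus strand), which encodes cyclin D3, had 16.8, 19.2 and 16.9 CPM in BPAP 1 to 3, against 23.5, 79.4 and 16.3 CPM in DMSO 1 to 3. The DMSO 2 library alone stood apart, with 1015 counts where the other 5 libraries had 206 to 256. Its level there was 3.38 times the higher of the other DMSO libraries, and it was 1 of 7 genes of 11711 for which DMSO 2 was at least 3 times both. The log2 fold change was -1.17 with a standard error of 0.69 (95% interval -3.003 to 0.66, adjusted p = 0.268), and -0.17 (adjusted p = 0.522) without DMSO 2. Bysl shares 361 of the 8775 exon bases of Ccnd3 on the opposite strand and was at 21.7 CPM in DMSO 2, between 19.9 and 35.1 CPM in the other libraries. Bysl itself was higher in BPAP in edgeR's test (log2 fold change 0.52, adjusted p = 0.0140). The share of its reads in the Ccnd3 counts was not tested. Summed over the D-type cyclin genes, the level was 219 ± 17.7 CPM in BPAP and 216 ± 38.7 CPM in DMSO, and without Ccnd3 it was 202 ± 17.4 CPM in BPAP and 176 ± 8.88 CPM in DMSO (SD, n = 3 each).

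Ccne2, which encodes cyclin E2 (chromosome 4, 11191351 to 11204779, plus strand), had 3.09, 1.58 and 3.69 CPM in BPAP 1 to 3, against 8.72, 9.23 and 7.75 CPM in DMSO 1 to 3. All BPAP libraries were lower by a wide margin, and BPAP 2 was the lowest. These levels rest on 38, 19 and 45 counts in BPAP and 95, 118 and 110 counts in DMSO. Its 3.06-fold fall (log2 fold change -1.61, SE 0.26, adjusted p = 0.00206) was the largest of the 10 genes among those that passed, and it passed in every alternative that could be fitted. Ints8 overlaps 609 of its 3495 exon bases on the opposite strand, with 2527 counts over all libraries against 425 for Ccne2. Ints8 had 35.2, 23.2 and 34.9 CPM in BPAP and 36.0, 34.5 and 39.2 CPM in DMSO, and its difference did not pass (log2 fold change -0.23, adjusted p = 0.272). The strand setting of the counts is not given in the sources used here, so the share of Ints8 reads in the Ccne2 counts was not tested.

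Ccne1, which encodes cyclin E1 (chromosome 7, 38097984 to 38107534, minus strand), had 4.07, 5.24 and 4.18 CPM in BPAP 1 to 3, against 7.16, 6.57 and 6.41 CPM in DMSO 1 to 3. The groups did not overlap, and here BPAP 2 was the highest of the BPAP libraries. It fell 1.49-fold (log2 fold change -0.58, SE 0.18, adjusted p = 0.0319). The call, though not the size of the difference, was lost without BPAP 1 (log2 fold change -0.51, adjusted p = 0.0958), BPAP 3 (-0.53, 0.0862), DMSO 1 (-0.55, 0.0825), DMSO 2 (-0.59, 0.0782) or DMSO 3 (-0.61, 0.0650), and in DESeq2 (-0.58, 0.0659). Both E-type cyclin genes together gave 7.29 ± 0.54 CPM in BPAP and 15.3 ± 0.97 CPM in DMSO (SD, n = 3 each). The groups did not overlap in the mix of E-type transcripts, as the Ccne2 to Ccne1 ratio of counts, chosen after the values were seen, was 0.76, 0.30 and 0.88 in BPAP 1 to 3 and 1.22, 1.40 and 1.21 in DMSO 1 to 3.

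Ccna2, which encodes cyclin A2 (chromosome 3, 36564865 to 36572150, minus strand), had 160, 106 and 181 CPM in BPAP 1 to 3, against 229, 211 and 210 CPM in DMSO 1 to 3. BPAP 2 was at 62.0% of the mean of the other BPAP libraries, and the groups did not overlap. The 1.45-fold fall (log2 fold change -0.54, SE 0.18, adjusted p = 0.0466) was close to the threshold. The call was lost at a similar fold change without BPAP 1 (log2 fold change -0.59, adjusted p = 0.0767), DMSO 1 (-0.52, 0.120), DMSO 2 (-0.56, 0.0927) or DMSO 3 (-0.56, 0.0957). With no filter on low counts the call was lost too (-0.55, adjusted p = 0.0610), as with the FPKM length trend removed (-0.52, 0.0621). Without BPAP 2 the difference was smaller and passed, at -0.34 (adjusted p = 0.0166). Exosc9 shares 510 of its 4083 exon bases on the opposite strand, with a log2 fold change of 0.10 (adjusted p = 0.532).

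**Figure D2:**
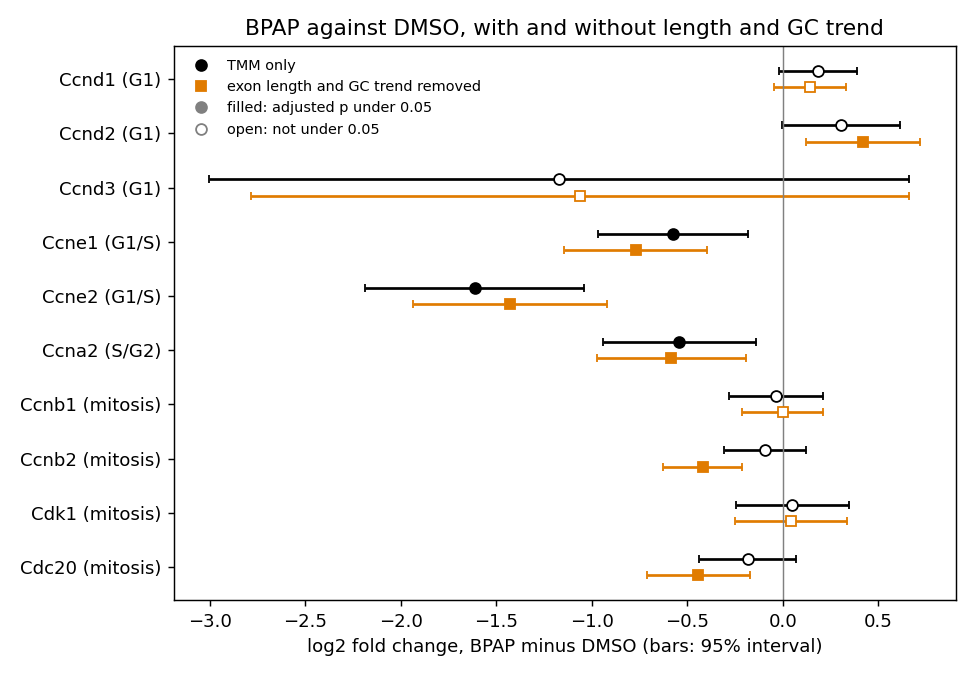
Log2 fold change, BPAP minus DMSO, of each gene with its 95% interval, from edgeR after TMM scaling (black circles) and with each library's exon length and GC trend also removed (orange squares). Filled symbols have an adjusted p under 0.05. Ccne1, Ccne2 and Ccna2 are filled in both fits, and Ccnd2, Ccnb2 and Cdc20 are filled only with the trend removed.

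The 4 genes of mitosis overlapped between the groups. Ccnb1, which encodes cyclin B1 (chromosome 13, 100778650 to 100786570, minus strand), had 34.4, 30.5 and 37.3 CPM in BPAP 1 to 3, against 32.5, 35.9 and 36.3 CPM in DMSO 1 to 3. The BPAP libraries held both the lowest and the highest of these 6 values. The log2 fold change was -0.03, with a 95% interval of -0.28 to 0.21 (adjusted p = 0.834 in edgeR's test). For Ccnb1, 5 other annotated genes have transcripts that match its own at 95% identity or more over at least 200 bases, Ccnb1-ps at 99.2% over 1287 bases, and Ccnd3 and Cdc20 have 1 such copy each. The sources used here do not say how reads that match several copies were counted, so the levels of these genes are uncertain to that extent.

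Cdk1, the kinase of mitotic entry (chromosome 10, 69336635 to 69352938, minus strand), had 59.4, 46.8 and 64.3 CPM in BPAP 1 to 3, against 51.3, 62.1 and 51.1 CPM in DMSO 1 to 3. No group lay apart, and the log2 fold change was 0.05 (95% interval -0.24 to 0.35, adjusted p = 0.791). Summed over the mitotic genes, the level was 361 ± 43.1 CPM in BPAP and 387 ± 28.6 CPM in DMSO (SD, n = 3 each).

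Ccnb2, which encodes cyclin B2 (chromosome 9, 70407689 to 70421554, minus strand), had 139, 127 and 158 CPM in BPAP 1 to 3, against 146, 158 and 148 CPM in DMSO 1 to 3. BPAP 3 was within the DMSO range and the other BPAP libraries were below it. The log2 fold change was -0.09 (95% interval -0.31 to 0.12, adjusted p = 0.485). Cdc20, the APC/C activator of anaphase (chromosome 4, 118432901 to 118437352, minus strand), had 125, 115 and 146 CPM in BPAP 1 to 3, against 129, 160 and 150.2 CPM in DMSO 1 to 3, with a log2 fold change of -0.18 (95% interval -0.44 to 0.07, adjusted p = 0.246). BPAP 3 again lay inside the DMSO range.

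Ccnb2 and Cdc20 have the shortest merged exons of the 10 genes, 1531 and 1868 bases against 2662 to 9409 for the others. Across all genes the median log2 fold change declined with merged exon length, at 0.26 for the 2917 shortest genes (up to 2642 bases), 0.099 and -0.040 for the next bins of equal size and -0.21 for the 2916 longest (6627 bases and more), so all genes were also fitted after removing the length and GC trend of each library. In that fit Ccnb2 was 1.34-fold lower in BPAP (log2 fold change -0.42, 95% interval -0.63 to -0.21, adjusted p = 0.0124) and Cdc20 1.36-fold lower (log2 fold change -0.44, 95% interval -0.71 to -0.17, adjusted p = 0.0281). Ccnb1, with 4217 exon bases, stayed at 0.0013 (95% interval -0.21 to 0.21) and Cdk1, with 4934, at 0.04 (95% interval -0.25 to 0.34). Of the 10 genes, 5 were lower in that fit, where 11.2% of all genes were, and 1 was higher, where 11.8% of all genes were. With the FPKM length trend removed instead, Ccnb2 passed at -0.32 (adjusted p = 0.0359) and Cdc20 did not, at -0.33 (adjusted p = 0.0551), so that Ccne1, Ccne2 and Ccnb2 were lower and Ccnd2 higher, where 12.1% of all genes were lower and 12.1% higher. The shares of all genes called under the other settings frame the counts of the 10 genes there. With no filter on low counts 11.3% were lower and 10.9% higher, with DESeq2 size factors 16.2% and 15.7%, with limma-trend on FPKM 18.3% and 15.8%, and with a replicate block 17.8% and 18.4%. The shares lower were 12.2% without BPAP 1, 14.0% without BPAP 2, 13.4% without BPAP 3, 11.5% without DMSO 1, 10.4% without DMSO 2 and 11.1% without DMSO 3. The shares higher were 13.2%, 14.0%, 13.6%, 10.5%, 10.8% and 11.3% without those libraries in the same order. The source of the trend was not tested.

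**Figure D3:**
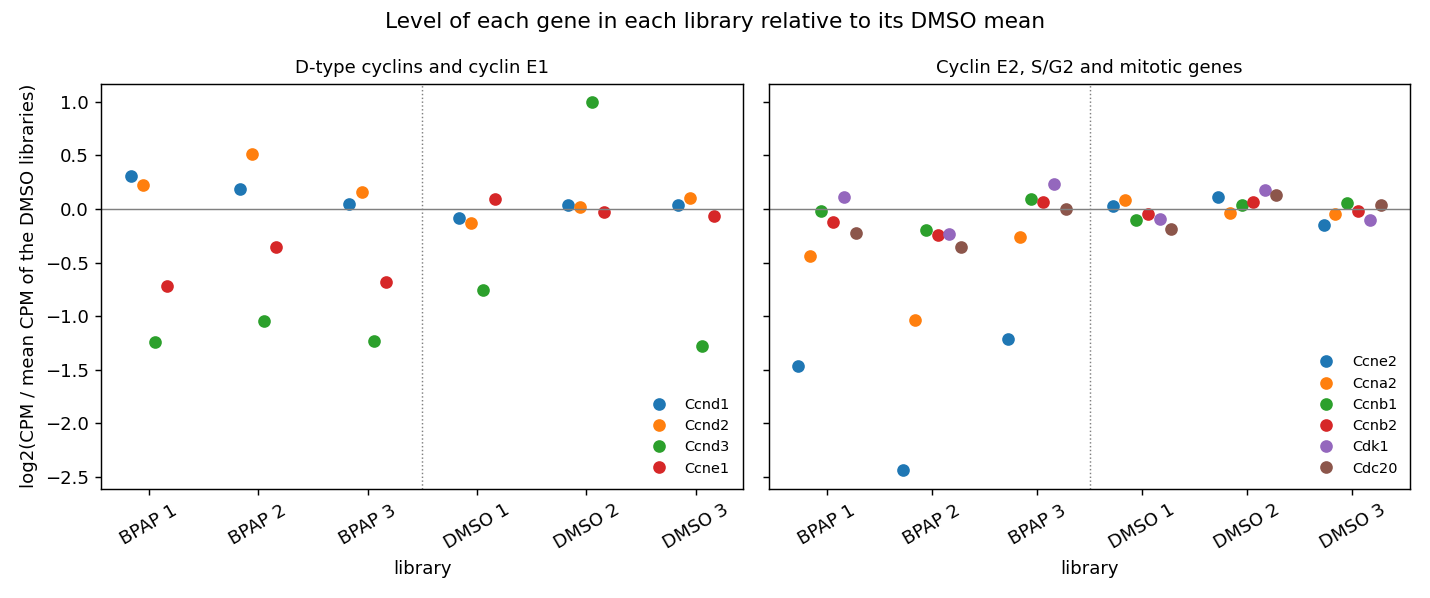
Log2 of the CPM of each gene in each library over its mean CPM in DMSO, BPAP libraries left and DMSO libraries right of the dotted line, with D-type cyclins and Ccne1 in the left panel and the remaining genes in the right panel. In the right panel all 6 genes are lowest in BPAP 2, and Ccne2, Ccna2 and Cdc20 are below 0 in all 3 BPAP libraries, Cdc20 in BPAP 3 by little (146.1 CPM against a DMSO mean of 146.2 CPM).

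The BPAP libraries differed among themselves. BPAP 2 was the lowest of all 6 libraries for Ccne2, Ccna2, Ccnb1, Ccnb2, Cdk1 and Cdc20, at 46.6% of the mean of BPAP 1 and BPAP 3 for Ccne2, 75.6% for Cdk1 and 84.5% to 85.9% for Ccnb1, Ccnb2 and Cdc20. For Ccnd2, Ccnd3 and Ccne1, in contrast, BPAP 2 was the highest BPAP library, at 114% to 127% of that mean.

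Ratios of counts between genes within a library do not depend on how libraries are scaled, and those given here were chosen after the values were seen. Ccna2 counts per Cdk1 count were 2.69, 2.26 and 2.82 in BPAP 1 to 3, against 4.47, 3.39 and 4.11 in DMSO 1 to 3, with no overlap. Per Ccnb1 count they were 4.64, 3.46 and 4.86 in BPAP and 7.06, 5.87 and 5.79 in DMSO, again with no overlap. Ccnb1 counts per Cdk1 count, between a mitotic cyclin and its kinase, overlapped at 0.58, 0.65 and 0.58 in BPAP and 0.63, 0.58 and 0.71 in DMSO. Ccne1 counts per Ccnd1 count were 0.0202, 0.0283 and 0.0250 in BPAP and 0.0467, 0.0394 and 0.0384 in DMSO, without overlap.

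Levels between genes were compared as CPM per kilobase of merged exons. The length behind the deposited FPKM is another choice. It is 6275 bases for Ccna2 and 4210 for Ccnd1, against 4083 and 4709 merged exon bases. For Ccne2 and Ccne1 it is 7784 and 3757, against 3495 and 2662. The order between genes therefore depends on the length used, and it is given here by merged exons only. In BPAP the order was Ccnb2 at 92.3 ± 10.00, Cdc20 at 68.9 ± 8.54, Ccnd1 at 39.2 ± 3.58, Ccna2 at 36.5 ± 9.55, Cdk1 at 11.5 ± 1.83, Ccnb1 at 8.09 ± 0.81, Ccnd3 at 2.01 ± 0.15, Ccnd2 at 1.80 ± 0.24, Ccne1 at 1.69 ± 0.24 and Ccne2 at 0.80 ± 0.31 CPM per kilobase (SD, n = 3). Among neighbours in that order, the library values overlapped between Ccnd1 and Ccna2, between Ccnd3 and Ccnd2, and between Ccnd2 and Ccne1. In DMSO, by merged exon length, Ccna2 stood above Ccnd1, at 53.1 ± 2.67 against 34.5 ± 1.66 CPM per kilobase with no overlap. By the same length, Ccne2 at 2.45 ± 0.22 overlapped Ccne1 at 2.52 ± 0.15. The remaining levels in DMSO were 98.6 ± 4.07 for Ccnb2, 78.3 ± 8.55 for Cdc20, 11.1 ± 1.28 for Cdk1, 8.27 ± 0.49 for Ccnb1, 4.53 ± 3.94 for Ccnd3 and 1.46 ± 0.12 for Ccnd2, where Ccnd3 overlapped both Ccnb1 and Ccne1.

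The gene with the nearest profile to each was found among 8773 or 8774 tested genes with a mean of at least 100 counts, by the root mean square difference of centred log2 CPM over the 6 libraries. For Ccne2 it was Cenpf, the gene of a kinetochore protein, at a difference of 0.13, with 178, 91.5 and 197 CPM in BPAP 1 to 3 and 424, 398 and 424 CPM in DMSO 1 to 3. The low value of BPAP 2 and the gap between the groups in Cenpf follow from its choice by nearness to Ccne2. For Ccna2 the nearest gene was Ccdc77 at 0.021, for Ccne1 it was Idi1, of isoprenoid synthesis, at 0.041, and for Ccnd3 no gene came closer than Vps26a at 0.42. For Ccnd1 it was Spag7 at 0.037, for Ccnd2 Wdr46 at 0.030, for Ccnb1 Traf3ip1 at 0.013, for Ccnb2 Lrig2 at 0.032, for Cdk1 Arfip1 at 0.046 and for Cdc20 Mb21d1 at 0.036. Within the 10 genes, Ccnb1 and Ccnb2 were each other's nearest at 0.055, Cdk1 was nearest to Ccnb1 at 0.11 and Cdc20 to Ccnb2 at 0.081. The closest of the 10 to Ccna2 was Cdc20 at 0.28, farther than any of those mitotic pairs. Many other genes lay closer than these nearest members. Their rank among all candidates was 47 for Ccnb1, 31 for Ccnb2, 79 for Cdk1, 53 for Cdc20 and 1913 for Ccna2. The measure keeps the size of the variation, so profiles that vary little lie close to each other.

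The regulators of these genes moved unevenly, and each list's counts are to be read against 15.5% of all genes lower and 16.2% higher. Among other CDKs, cyclins and Cks proteins, 2 of 9 tested genes were higher and 1 lower, and their median log2 fold change was 0.15. Cdk4, a D-type cyclin partner, rose 1.35-fold to 210 ± 9.26 CPM in BPAP, against 156 ± 32.4 CPM in DMSO (SD, n = 3 each, adjusted p = 0.0311). Cdk6, the other partner, was 1.35-fold lower, at 200 ± 15.5 CPM in BPAP and 271 ± 7.07 CPM in DMSO (adjusted p = 0.00499), and Cks1b, a small CDK-binding protein gene, rose 1.31-fold (adjusted p = 0.0334). After exon length and GC correction, Cdk4 (log2 fold change 0.27, adjusted p = 0.199), Cdk6 (-0.17, 0.152) and Cks1b (0.03, 0.851) did not pass. Mnat1, another gene of this list and named after its values were seen, passed as higher in that fit (0.46, adjusted p = 0.00675). The FPKM length correction also ended the calls of Cdk6 (0.174) and Cks1b (0.258). The call of Cdk4 was also lost without BPAP 1 (adjusted p = 0.0728), BPAP 2 (0.0951), DMSO 2 (0.108) or DMSO 3 (0.107), and that of Cks1b with limma-trend on FPKM (0.0651) and without BPAP 2 (0.069), BPAP 3 (0.0771) or DMSO 1 (0.0928). The germline cyclin genes Ccna1 and Ccnb3 had 0 counts in every library.

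Of 4 tested CDK inhibitor genes, 1 was lower and 0 higher (median log2 fold change -0.15). Cdkn1b, which encodes p27, an inhibitor of cyclin E and cyclin A complexes, was 1.33-fold lower, at 147 ± 10.2 CPM in BPAP and 196 ± 32.9 CPM in DMSO (SD, n = 3 each, adjusted p = 0.0251). Its call was lost without BPAP 2 (adjusted p = 0.062), BPAP 3 (0.0748), DMSO 1 (0.0562) or DMSO 3 (0.0968) and after exon length and GC correction (0.0508) or removal of the FPKM length trend (0.055). Cdkn1a, the gene of the p53-induced inhibitor p21, named after its values were seen, had a log2 fold change of -0.06 (adjusted p = 0.658). Cdkn1c, Cdkn2a and Cdkn2b had 0 counts throughout, a floor of 3 counts or 0.217 to 0.271 CPM per library by counting error alone.

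Of 9 genes of kinases, phosphatases and a kinase activator around Cdk1, 3 were lower and 0 higher (median log2 fold change -0.41). Mastl, whose kinase restrains the phosphatase that opposes CDK1, was 1.82-fold lower, at 29.8 ± 7.60 CPM in BPAP and 54.4 ± 0.98 CPM in DMSO (SD, n = 3 each, adjusted p = 0.00444). Pkmyt1, which encodes a kinase that inhibits CDK1, was 1.46-fold lower (adjusted p = 0.0117). The third was Bora, an activator of mitotic kinases, 1.51-fold lower (adjusted p = 0.0260), named to complete the count and lost without BPAP 1 (0.0675), DMSO 1 (0.0775), DMSO 2 (0.0548) or DMSO 3 (0.0632). The list's count was 2 without BPAP 1, DMSO 2 or DMSO 3, 5 after exon length and GC correction, 6 with DESeq2 size factors or a replicate block, and 7 without BPAP 3, with no filter, with DESeq2, with limma-trend on FPKM or after removal of the FPKM length trend.

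In the RB and E2F list 5 of 13 genes were lower and 0 higher, with a median of -0.18. E2f7, an E2F repressor gene, was 2.00-fold lower, at 6.35 ± 1.39 CPM in BPAP and 12.7 ± 1.44 CPM in DMSO (adjusted p = 0.00362), and Rbl2, which encodes the RB relative p130, was 1.42-fold lower (adjusted p = 0.00504). The activator genes E2f1, E2f2 and E2f3, named after their values were seen, had log2 fold changes of -0.13, -0.18 and 0.16 and did not pass (adjusted p = 0.426, 0.401 and 0.299). Of 10 genes for MuvB, B-MYB, FOXM1 and NF-Y, 4 were lower and 1 higher, with a median of -0.39. Lin54 and Lin52, of the MuvB core, were lower, with log2 fold changes of -0.53 (adjusted p = 0.00356) and -0.58 (adjusted p = 0.0118), and Lin54 was lost after removal of the FPKM length trend (0.061). Rbbp4, a histone-binding subunit of MuvB and of other complexes, rose 1.25-fold (adjusted p = 0.0226), a call lost with limma-trend on FPKM (0.0519) and without BPAP 3 (0.0575), DMSO 1 (0.0864) or DMSO 2 (0.0663). The list's count lower was 3 after exon length and GC correction, after removal of the FPKM length trend and without BPAP 1 or DMSO 2. It was 6 without BPAP 3.

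Of 18 APC/C subunit and regulator genes, 3 were lower and 1 higher, with a median of 0.01. Fbxo5, which encodes the APC/C inhibitor EMI1, had 14.3, 9.24 and 17.2 CPM in BPAP 1 to 3, against 34.2, 33.3 and 32.3 CPM in DMSO 1 to 3. The groups lay well apart, and the fall was 2.44-fold (log2 fold change -1.29, SE 0.19, adjusted p = 0.00156). The subunit gene Cdc27 was 1.38-fold lower (adjusted p = 0.0126), a call lost after exon length and GC correction (0.113), where 1 gene of the list was lower. The subunit gene Anapc16 rose 1.43-fold (adjusted p = 0.00726).

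Of 8 spindle assembly checkpoint genes, whose products hold CDC20 inactive until chromosomes attach, 4 were lower and 0 higher, with a median of -0.26. The count lower was 3 without BPAP 1, DMSO 2 or DMSO 3. After exon length and GC correction 4 were lower and 1 was higher. The higher gene was Mad2l1, named after its values were seen (log2 fold change 0.41, adjusted p = 0.0152). Bub1 had 139, 87.8 and 149 CPM in BPAP 1 to 3, against 276, 253 and 263 CPM in DMSO 1 to 3, a 2.11-fold fall (adjusted p = 0.00375). Ttk, a checkpoint kinase gene, was 1.99-fold lower (adjusted p = 0.00178). For both genes, as for Fbxo5 and Mastl, BPAP 2 was the lowest of the BPAP libraries, as it was for 40.4% of all genes tested. The last list held 6 genes of SCF ubiquitin ligases, which mark cell cycle proteins for destruction. Of these, 0 passed in either direction at an adjusted p of 0.05 in edgeR's test or an unadjusted p of 0.05. In DESeq2 0 passed too. The smallest p was that of Cul1 (log2 fold change -0.17, adjusted p = 0.208), and the median was 0.12. After exon length and GC correction, Btrc, a substrate receptor gene, passed as higher (log2 fold change 0.51, SE 0.11, adjusted p = 0.00995).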

How the data were processed

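RNA-seq of 3 BPAP-treated and 3 DMSO-treated RAW 264.7 samples was analysed from 1 table in which the authors deposited a raw count and an FPKM value per gene and library, per the file headers. Per the submitters' processing notes, HISAT2 2.0.4, StringTie 1.3.3b and edgeR were used with GRCm38; the sources used here give no roles, annotation release or strand setting.

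Counts were filtered with edgeR's default (11711 of 34745 genes tested), TMM-scaled and compared by the quasi-likelihood test of edgeR 4.0.16 under R 4.3.3 (robust, treatment as the only term), with Benjamini-Hochberg adjustment over all genes and a threshold of 0.05. Standard errors were derived from the F statistic. The code was tested on simulated counts. Merged exon length and GC content are from GENCODE M21; their trend was removed by lowess (span 0.3) as an offset for 11665 genes. The deposited FPKM entered only an alternative, limma-trend on log2(FPKM + 1) where the mean FPKM reached 1 (limma 3.58.1), and the length behind it. DESeq2 1.42.0 was another alternative.

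The 10 genes and the regulator lists were chosen with earlier results of these data known. Genes of the lists were named by rule: up to 2 per direction with the smallest p among those that passed, or the 1 with the smallest p; others are marked. Knl1 was matched by gene identifier. Library totals of 11084705 to 13806559 counts put 3 counts at 0.271 to 0.217 CPM; floors cover counting error only. The result of 1 further marker list is not reported here.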

Additional observations from a re-analysis of the deposited data

How the results depend on the processing

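Of the 10 genes, 3 were called lower and 0 higher. The count lower was 5 after exon length and GC correction, 2 with DESeq2, with no filter on low counts and with limma-trend on FPKM, where Ccne2 was below the FPKM minimum, and 1 to 3 in the fits without 1 library (1 without BPAP 1, DMSO 1, DMSO 2 or DMSO 3); Ccnd2, 1 gene, was higher with either trend removed. Ccne2 was called in every alternative that gave it a value, with log2 fold changes of -1.33 without BPAP 2 to -1.86 without BPAP 3. Uncalled genes near 0 changed sign: Ccnb1 to 0.038 and 0.0013 after removal of the FPKM length trend and exon length and GC correction, with a range of -0.104 to 0.0398 in the fits without 1 library (positive without BPAP 2), and Cdk1, with a range there of -0.0463 to 0.175, negative without BPAP 3 and DMSO 1 (-0.013). Over all genes, 1814 were lower and 1901 higher, and in the fits without 1 library 1235 to 1660 lower and 1244 (without DMSO 1) to 1654 higher. Correlations of same-numbered deviations were 0.10, 0.054 and 0.0098, against -0.086 to 0.045 for libraries of different numbers. These small values do not settle whether the replicate numbers pair the libraries. With the replicate numbers as a block, 2087 genes were lower and 2149 higher, and the same count of 3 of the 10 was lower. The cause of these shifts was not tested. Ccne1 and Ccne2 rest on 19 to 118 counts a library, which limits their precision.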
